A study of Homo sapiens with 4 samples.

Results

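THP-1 cells carrying Siglec-14 (Siglec-14/THP-1) were compared with those carrying Siglec-5 (Siglec-5/THP-1) without bacterial stimulation, as the signal of each gene in Siglec-14,NTHi[-] over its signal in Siglec-5,NTHi[-]. Of 19775 genes with a probe set listed for that gene alone, 8110 were described, each by its brightest probe set (highest mean signal over the 4 arrays). These are the genes whose higher signal of the pair reached 105, the 75th percentile of all signals. The rule used the level of a gene and not its ratio, and both directions are given. THP-1 is an established human monocytic leukemia line, and the sublines carry Siglec-14 or Siglec-5 protein as stand-ins for monocytes of people with and without a working SIGLEC14 gene. All cells stood for 6 h in Macrophage-SFM, a serum-free medium. In Siglec-14,NTHi[+] and Siglec-5,NTHi[+] they also met 100 heat-killed cells of nontypeable Haemophilus influenzae (NTHi), strain 2019, for each THP-1 cell. Each of the 4 conditions was measured on 1 array, so the ratios have no replicate error and no test was made. The labels and methods do not say whether a subline is 1 clone, and a difference between the sublines in all cells cannot be told apart from one in a fraction of the cells.

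Siglecs are lectins of the immune cell surface that bind sialic acid, the sugar at the tip of many glycans. Siglec-14 and Siglec-5 bind their ligands through nearly identical outer domains but signal in opposite ways. Siglec-14 pairs with the adaptor DAP12 (gene TYROBP), which recruits the kinase SYK and activates the cell, whereas Siglec-5 carries inhibitory motifs that recruit the phosphatases SHP-1 and SHP-2 (genes PTPN6 and PTPN11). The question put by the comparison is which transcripts differed between the sublines before any bacterium was added.

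The arrays gave little with which to check the labels. No probe set was listed for SIGLEC14 alone. The SIGLEC5 probe set gave 21.3 in Siglec-14,NTHi[-] and 4.13 in Siglec-5,NTHi[-], and 19.5 and 21.6 in the same sublines with NTHi. These values lie around or under 16.0, the median of all signals, which is used here as the floor of detection, so that they do not show which array came from which subline. None of the 12 Siglec genes measured reached 105 on either nonstimulated array. Among 17 monocyte and macrophage markers, 4 were bright enough to be described (ITGAM, LYZ, VCAN and CD86), whereas the monocyte receptor CD14 gave 11.4 and 0.808. Lysozyme (LYZ) gave 3172 in Siglec-14,NTHi[-] and 3430 in Siglec-5,NTHi[-]. Markers of other cells were mostly dim, with 3 of 17 lymphoid, 1 of 10 erythroid and megakaryocytic, and 2 of 16 epithelial, endothelial and fibroblast genes among the 8110.

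Hybridization and RNA quality were close on the pair of arrays. The sum of all signals in Siglec-14,NTHi[-] was 0.907 of that in Siglec-5,NTHi[-], and the 18 hybridization control probe sets stood at 0.920. The 3′ to 5′ signal ratio of GAPDH was 1.02 and 1.03, and that of ACTB 1.20 and 1.21. Over the 8110 genes the median log2 ratio was -0.17 with an SD of 0.52, and 2194 genes (27.1%) were higher in Siglec-14/THP-1. Scaling the arrays to equal sums moved this median to -0.02. A gene's ratio is therefore best read against -0.17.

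Most genes differed little. Of the 8110, 7149 (88.2%) had signals within 1.5-fold of each other, and the central range from the 5th to the 95th percentile ran from -0.66 to 0.54 on the log2 scale. The differences that stood far outside this range were nearly all in 1 direction. In Siglec-14/THP-1, 97 genes (1.2%) were at least 3-fold higher and 4 (0.0493%) at least 3-fold lower. At 2-fold, 187 genes (2.31%) were higher and 67 (0.826%) lower, so that 73.6% of the genes past 2-fold were higher. This share was 87.0% with arrays scaled to equal sums, where 36 genes were 2-fold and 1 gene 3-fold lower. It was 61.1% when the floor was put at the median of all signals, where 466 genes were 3-fold higher and 226 lower. The genes between that floor and 105 scatter more, with an SD of 1.08 over 5174 genes.

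**Figure D1:**
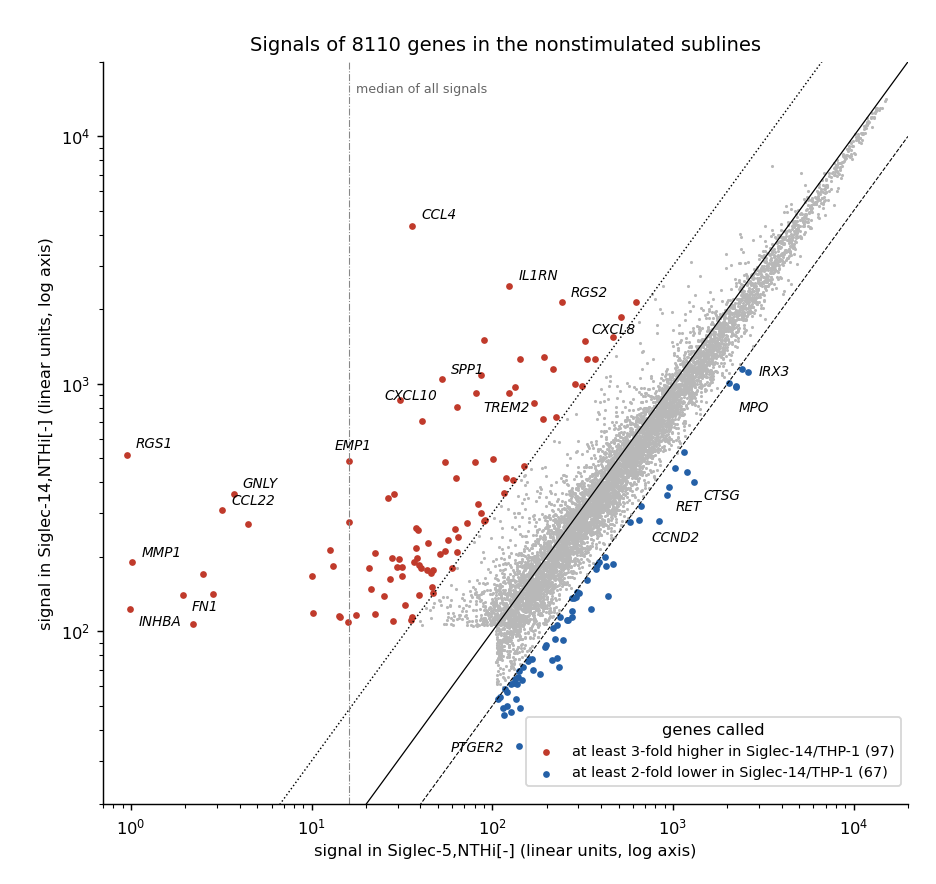
Signal of each of the 8110 genes in Siglec-5,NTHi[-] (horizontal) and in Siglec-14,NTHi[-] (vertical), in linear units on log axes. The solid line marks equal signals, the dotted line 3-fold higher and the dashed line 2-fold lower in Siglec-14/THP-1, and the vertical line the median of all signals, 16.0. Red points, 97 genes at least 3-fold higher, reach far to the left, and 17 genes lie left of the median line, whereas the 67 blue points stay near the cloud.

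The genes higher in Siglec-14/THP-1 were often near the floor in Siglec-5/THP-1. There were 17 genes whose lower signal was under 16.0, and in all 17 the lower signal was that of Siglec-5/THP-1. For these the fold is given as a bound, with 16.0 as the lower signal. Among the 7519 genes at or above 105 on both nonstimulated arrays, 22 were at least 3-fold higher and 2 at least 3-fold lower, and 81 and 35 were past 2-fold. The 3-fold line itself cut a continuous series. SERTAD1, MCOLN3 and PECAM1 lay just inside it at 2.92-, 2.94- and 2.99-fold, and IRAK2, RELB and PTPN14 just past it at 3.03-, 3.04- and 3.08-fold. At the level floor, the brighter signal of BSPRY, TYSND1 and DUSP28 just missed it at 104.737, 104.787 and 104.824, and that of FPGS, TTC7B and FAM118A just passed at 105.061, 105.1 and 105.125.

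The promoters of the higher genes are shown here first, since NF-kB and AP-1, transcription factors that act downstream of many activating receptors, have well known binding motifs. Promoter sequence was taken from RefSeq (GRCh38.p14) as 250 bases before to 50 after each gene's start, and a promoter was found for 72 of the 97 genes at least 3-fold higher, for 48 of the 67 at least 2-fold lower and for 6880 of the 8110. On either strand, GGANTTTCC or GGGNNTTCC, forms of the NF-kB motif, stood in 14 of the 72 promoters (19.4%), beside 12.5% of the 48, 9.91% of the 6880 and 8.13% of all 27305 promoters of the table. TGANTCA, the AP-1 motif, stood in 11 of the 72 (15.3%), beside 4.17%, 4.1% and 7.76%. The other motifs searched were in few of the 72: TGACGTCA (the CRE motif) in 4.17%, GAGGAAGT (PU.1) in 5.56% and GAAACNGAA (interferon response) in 1.39%. Over the 6880 these were in 3.53%, 2.72% and 1.89%, and over all promoters in 1.98%, 2.54% and 1.94%. The NF-kB forms cannot match the same stretch of bases, and other motifs may overlap in part. Motif matches describe sequence and show no binding.

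Among the 72, 7 promoters held at least 2 matches. The share of such promoters over all described genes was not taken, so the 7 are shown as sequence and not as a trait of the higher genes. The stretch around the matches is printed for each, 5′ to 3′ on the gene's strand. Matches are in capitals, and bases are counted from 0 at the gene's start.
CXCL10 (chr4:76023596-76023688, minus strand, bases -191 to -99): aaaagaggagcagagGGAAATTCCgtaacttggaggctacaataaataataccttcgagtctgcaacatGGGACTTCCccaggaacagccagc
CXCL8 (chr4:73740417-73740501, plus strand, bases -152 to -68): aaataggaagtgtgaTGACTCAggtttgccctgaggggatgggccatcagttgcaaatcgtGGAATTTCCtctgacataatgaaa
EBI3 (chr19:4229295-4229479, plus strand, bases -228 to -44): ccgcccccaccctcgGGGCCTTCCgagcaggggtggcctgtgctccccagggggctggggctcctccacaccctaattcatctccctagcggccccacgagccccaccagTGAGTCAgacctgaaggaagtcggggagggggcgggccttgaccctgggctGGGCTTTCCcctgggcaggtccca
EMP1 (chr12:13196536-13196699, plus strand, bases -190 to -27): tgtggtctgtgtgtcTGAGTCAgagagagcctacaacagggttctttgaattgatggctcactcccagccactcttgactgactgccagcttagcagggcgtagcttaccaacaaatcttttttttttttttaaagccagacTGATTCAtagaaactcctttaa
NFKBIA (chr14:35404807-35404999, minus strand, bases -250 to -58): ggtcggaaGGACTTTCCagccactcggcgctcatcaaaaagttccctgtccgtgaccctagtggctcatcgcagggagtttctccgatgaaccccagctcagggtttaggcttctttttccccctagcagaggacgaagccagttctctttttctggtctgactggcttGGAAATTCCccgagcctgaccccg
TFPI2 (chr7:93890819-93890919, minus strand, bases -166 to -66): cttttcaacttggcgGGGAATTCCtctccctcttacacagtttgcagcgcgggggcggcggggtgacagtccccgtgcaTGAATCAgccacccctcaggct
TNFSF14 (chr19:6670111-6670341, minus strand, bases -181 to 49): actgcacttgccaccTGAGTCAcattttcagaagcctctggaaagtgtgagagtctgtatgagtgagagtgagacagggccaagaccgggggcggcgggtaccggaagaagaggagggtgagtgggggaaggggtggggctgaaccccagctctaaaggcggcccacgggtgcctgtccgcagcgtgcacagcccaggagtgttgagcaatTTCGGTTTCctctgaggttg

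CXCL10 and NFKBIA held a pair of NF-kB matches each, EMP1 a pair of AP-1 matches, and CXCL8 and TFPI2 1 of each kind. EBI3 held 2 NF-kB matches and 1 AP-1 match. TNFSF14 had an AP-1 match before its start and an interferon response match after it.

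Gene lists are described by their genes that reached 105 on at least 1 nonstimulated array. A gene that was dim in one subline therefore entered through its signal in the other, and dimmer genes of a list are not counted. The counts and medians of each list below stand beside those over all 8110 genes. Of these, 2.31% were at least 2-fold higher and 0.826% at least 2-fold lower, and the median log2 ratio was -0.17.

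Chemokines, which draw leukocytes into tissue, included the largest ratio between signals at or above the floor, that of CCL4. Of 12 CC chemokines measured 5 were bright enough to be described, and all 5 were at least 2-fold higher in Siglec-14,NTHi[-], with a median log2 ratio of 3.15 beside -0.17 over the 8110 genes. CCL4, which attracts monocytes and T cells, gave 4355 in Siglec-14,NTHi[-] and 36.1 in Siglec-5,NTHi[-], a 120-fold difference, and 6775 and 203 with NTHi. Its near-identical gene copies may share the probe set. CCL22, a ligand of CCR4, gave 308 and 3.19, at least 19.3-fold, and 421 and 2.58 with NTHi. CCL20, the ligand of CCR6, gave 1257 and 142 (8.88-fold), and 5720 and 1031 with NTHi. The monocyte attractant CCL2 gave 118 and 22.6 (5.21-fold), and CCL5 gave 2498 and 884 (2.83-fold). CCL4 and CCL22 thus differed without NTHi by far more than CCL5.

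Of 13 CXC chemokines 2 were bright enough. CXCL8, the neutrophil attractant interleukin-8, gave 1491 and 325 (4.59-fold), and 4883 and 1414 with NTHi. A second probe set of CXCL8 gave 545 and 106. CXCL10, an attractant of activated T cells, gave 807 in Siglec-14,NTHi[-] and 63.8 in Siglec-5,NTHi[-], 12.7-fold, but 2035 and 3220 with NTHi. It was the only gene of the 97 whose ratio stood below 1 in the stimulated pair.

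Of 29 cytokines and growth factors measured, 11 were described, of which 5 were at least 2-fold higher and none 2-fold lower, with a median of 0.96. IL1RN, which encodes the antagonist of the interleukin-1 receptor, gave 2495 in Siglec-14,NTHi[-] and 124 in Siglec-5,NTHi[-] (20-fold), and 3236 and 170 with NTHi. Its other probe sets gave 901 against 63.6 and 533 against 53.4. IL1B, the ligand that it opposes, gave 177 and 47.0 (3.76-fold). EBI3, the beta subunit of IL-27, gave 171 and 2.50, at least 10.7-fold, and 650 and 108 with NTHi. LTB, lymphotoxin beta, gave 971 and 134 (7.24-fold), and 1894 and 997 with NTHi. A dimmer probe set of LTB gave 26.5 and 15.6 without NTHi. VEGFA, the endothelial growth factor, lay at the 2-fold line with 772 and 385, and its 3 other probe sets above the floor gave log2 ratios of 0.61 to 0.89. TNFSF10, which encodes the death ligand TRAIL, lay the other way at 186 and 297.

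Some genes around NF-kB, a central transcription factor of inflammation, were higher in Siglec-14/THP-1. Of 15 described genes for NF-kB subunits, inhibitors and feedback (19 measured), 5 were at least 2-fold higher, none lower, and the median was 0.50. NFKBIA, the inhibitor IkB-alpha and itself an NF-kB target, gave 1259 in Siglec-14,NTHi[-] and 333 in Siglec-5,NTHi[-] (3.79-fold). NFKBIE, another inhibitor, gave 415 and 119 (3.5-fold). RELB, an NF-kB subunit, gave 143 and 47.0 (3.04-fold), IRAK2, a kinase of Toll-like receptor signaling, 181 and 59.8 (3.03-fold), and TNFAIP3, the feedback enzyme A20, 392 and 153 (2.57-fold). With NTHi the ratios of NFKBIA, NFKBIE, RELB and TNFAIP3 were smaller, at 1.98-, 2.11-, 1.53- and 1.16-fold, and that of IRAK2 was larger, at 4.77-fold. Among 6 Toll-like receptor genes and adaptors only TRAF6 was past 2-fold, at 122 and 45.5, and its second probe set gave 63.3 and 50.5. TLR2 gave 133.5 and 145.9, and MYD88, the adaptor of most of these receptors, 691 and 581.

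Immediate early genes, most of which encode transcription factors, respond to many stimuli within minutes. Of 20 measured 14 were described, of which 12 were higher, 6 at least 2-fold, with a median of 0.72. IER3, which encodes a survival factor rather than a transcription factor, gave 861 in Siglec-14,NTHi[-] and 30.8 in Siglec-5,NTHi[-] (28-fold). EGR1 gave 482 and 54.9 (8.77-fold), and EGR3 214 and 12.6, at least 13.4-fold. The nuclear receptor NR4A2 gave 115 and 14.3 (at least 7.2-fold), the stress factor ATF3 197 and 38.3 (5.16-fold), and the AP-1 subunit JUN 424 and 149. The ratios of EGR1, EGR3, NR4A2 and ATF3 with NTHi were 6.93-fold, at least 15.8-fold, at least 8.65-fold and 5.71-fold. Other early response genes were less uniform across probe sets. The phosphatase DUSP1, which switches off MAP kinases, gave 198 and 27.7 (7.15-fold), but 33.7 and 31.9 on a second, dimmer probe set. PHLDA1 gave 707 and 40.9 (17.3-fold), and its 5 other probe sets ran from 29.3 against 24.7 to 256 against 16.0.

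Regulators of G-protein signaling were among the genes that differed most. RGS1, which damps chemokine receptors, gave 515 in Siglec-14,NTHi[-] and 0.948 in Siglec-5,NTHi[-], at least 32.1-fold, and 825 and 4.06 with NTHi. Its second probe set gave 112 and 0.740. RGS16 gave 1504 and 89.6 (16.8-fold), and RGS2 2143 and 243 (8.82-fold). The list of GTPases and their regulators was otherwise close, with 4 of 12 genes past 2-fold upwards, 1 downwards and a median of 0.14. The gene lower was RASGRP2, an exchange factor for Rap1, at 277 and 576. Of its 3 other probe sets above the floor, 2 were lower as well and the last gave 25.6 and 4.51.

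**Figure D2:**
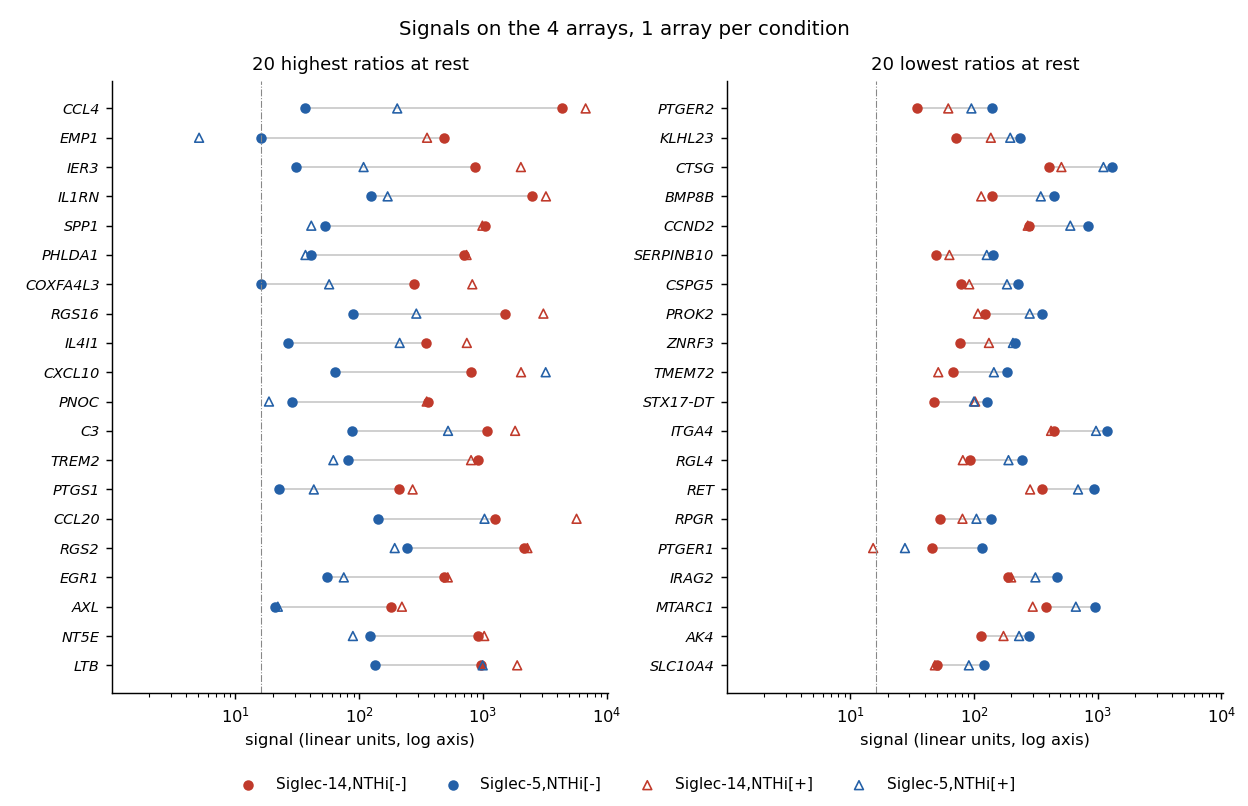
Signals on the 4 arrays (linear units, log axis) of the 20 genes with the highest and the 20 with the lowest ratio at rest, among genes whose nonstimulated signals both reached 16.0, the median of all signals (vertical line). Filled circles are nonstimulated and open triangles NTHi-stimulated cells, red for Siglec-14/THP-1 and blue for Siglec-5/THP-1, 1 array each. For most genes the triangles stand apart in the same order as the circles; for CXCL10 they are in the opposite order, and for STX17-DT they nearly coincide.

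Genes of lipid-handling, tissue-repair macrophages made up a list of 20 measured genes, of which 11 were bright enough and 9 were not. The 11 were all higher, 6 at least 2-fold, with a median of 1.0. The list was built around TREM2, a DAP12-coupled lipid receptor, which gave 915 in Siglec-14,NTHi[-] and 81.5 in Siglec-5,NTHi[-] (11.2-fold), and 803 and 61.8 with NTHi. SPP1, osteopontin, gave 1043 and 52.7 (19.8-fold), and 991 and 41.0 with NTHi. LPL, lipoprotein lipase, gave 118 and 10.1 (at least 7.39-fold), and AXL, a receptor for the uptake of dying cells, 181 and 20.7 (8.75-fold). The tetraspanin CD9 gave 2199 and 797 (2.76-fold), although the median over all its probe sets was -0.13. APOE gave 390 and 210, and LGALS3, galectin-3, 2293 and 1322. For SPP1, LPL, TREM2 and AXL the signals with NTHi lay close to those without it in each subline.

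Proteases of the extracellular matrix and their partners were higher in 11 of the 12 genes described (21 measured), 7 at least 2-fold, with a median of 1.41. The collagenase MMP1 gave 190 in Siglec-14,NTHi[-] and 1.02 in Siglec-5,NTHi[-], at least 11.9-fold. The gelatinase MMP9 gave 1282 and 194 (6.59-fold), and MMP14 242 and 64.5 (3.74-fold). TIMP3, an inhibitor of these proteases, gave 262 and 37.7 (6.93-fold), and the urokinase receptor PLAUR 1001 and 287. The 3 other probe sets of TIMP3 above the floor gave smaller ratios, from 81.5 against 31.2 to 129 against 28.9. FN1, fibronectin, gave 140 and 1.93 (at least 8.77-fold). Of its 4 other probe sets, 3 gave 104 to 143 against 0.956 to 1.94, and the last 19.9 and 13.3. TFPI2, a protease inhibitor found in matrix, gave 272 and 4.44 (at least 17-fold), and 675 and 2.32 with NTHi. EMP1, a membrane protein, gave 487 and 16.1 (30.3-fold).

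Surface molecules that meet T cells were higher in 7 of the 8 genes described (19 measured), 5 at least 2-fold, with a median of 1.42. HAVCR2, the checkpoint receptor TIM-3, gave 142 in Siglec-14,NTHi[-] and 2.85 in Siglec-5,NTHi[-], at least 8.86-fold, and 137 and 1.35 with NTHi. A second probe set gave 66.3 and 1.71, and another 36.1 and 32.7. CD86, a ligand of CD28, gave 218 and 37.6 (5.79-fold), CD40, the receptor of CD40L, 209 and 63.6 (3.28-fold), and CD83 720 and 258 (2.79-fold). SLAMF1, another costimulatory receptor, gave 167 and a signal under the floor (at least 10.4-fold), and the adenosine-forming enzyme NT5E (CD73) 916 and 123 (7.43-fold). Dimmer probe sets of NT5E gave 74.0 and 47.5, 64.7 and 31.8, and 29.5 and 2.41. By contrast, none of 15 genes of MHC class I and peptide loading was past 2-fold (median -0.03), and the MHC class II gene HLA-DRA gave 16.7 and 32.1, around the floor.

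Adhesion molecules differed in both directions. ICAM1, the ligand of beta-2 integrins, gave 168 in Siglec-14,NTHi[-] and 31.7 in Siglec-5,NTHi[-] (5.3-fold), and 625 and 161 with NTHi. VCAM1, the ligand of integrin alpha-4, gave 110 and 28.2 (3.92-fold), and PECAM1, of endothelium and leukocytes, 2307 and 771 (2.99-fold). ITGA4, which encodes integrin alpha-4 itself, was lower, at 441 and 1190 (2.7-fold), and 419 and 969 with NTHi. Its 3 other probe sets were lower as well, at 113 against 233, 116 against 212 and 228 against 579. Over the 16 genes of the list 3 were 2-fold higher and 1 lower, with a median of 0.19.

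Complement, chemoattractant receptor and eicosanoid genes included some large differences within lists that had medians of 0.43, 0.46 and -0.19. Of the 6, 10 and 9 genes described (17, 15 and 19 measured), 2, 3 and 3 were at least 2-fold higher. In the eicosanoid list 1 gene was at least 2-fold lower. C3, the central complement component, gave 1090 in Siglec-14,NTHi[-] and 86.9 in Siglec-5,NTHi[-] (12.5-fold), and 1823 and 523 with NTHi. Its receptor C3AR1 gave 1062 and 425 (2.5-fold). FPR1, the receptor for bacterial formyl peptides, gave 149 and 21.4 (6.95-fold), whereas CXCR4 lay the other way at 286 and 568. PTGS1, the cyclooxygenase COX-1, gave 208 and 22.5 (9.25-fold). Receptors for prostaglandin E2 differed in direction. PTGER4 gave 429 and 151 (2.83-fold higher), and PTGER2 34.3 and 141 (4.1-fold lower), the lowest ratio of all. With NTHi PTGER2 gave 61.9 and 95.2.

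GNLY, which encodes the cytotoxic granule protein granulysin, gave 360 in Siglec-14,NTHi[-] and 3.71 in Siglec-5,NTHi[-], at least 22.5-fold, and 410 and 2.14 with NTHi. It was the only one of 17 lymphoid markers past 2-fold among the 3 described. The T cell receptor components CD3D, CD3E and CD3G gave 1.42 to 19.8 in Siglec-14,NTHi[-], around or under the floor, and NKG7, another cytotoxic granule gene, gave 292 and 240. The summed signal of the 17 markers ran from 496 to 1019 over the 4 arrays.

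Genes lower in Siglec-14/THP-1 were fewer and the differences smaller. Folds here are from signals as deposited. With arrays scaled to equal sums, 1 gene was at least 3-fold and 36 genes at least 2-fold lower, so calls just past a threshold depend on the scaling. The 4 genes at least 3-fold lower were PTGER2, KLHL23 (71.9 in Siglec-14,NTHi[-] and 234 in Siglec-5,NTHi[-]), CTSG (403 and 1311) and BMP8B, a ligand of the BMP family (139 and 440). CTSG encodes cathepsin G, a protease of the primary granules that myeloid cells make at the promyelocyte stage. Over 11 genes of primary granule proteins, 9 were lower and 2 of them at least 2-fold, and the median of -0.24 was near that of all genes, -0.17. MPO, myeloperoxidase, gave 1152 and 2408 (2.09-fold lower), and a second probe set 429 and 749. MS4A3, a membrane protein of the same stage, gave 2524 and 4485. MNDA, an interferon-inducible nuclear protein of myeloid cells, gave 974 and 2249.

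Cell cycle genes were close, with 30 of 31 within 2-fold and a median of -0.21. The exception was CCND2, cyclin D2, at 280 and 835 (2.98-fold lower), and CDKN1C, the inhibitor p57, was 4.9-fold higher at 838 and 171. Other lower genes were RET, a receptor tyrosine kinase, at 357 and 927 (2.6-fold), the homeobox gene IRX3 at 1114 and 2604 (2.34-fold), the ligand PROK2 at 123 and 352 (2.85-fold), and CA2, carbonic anhydrase 2, at 979 and 2240 (2.29-fold). HK2, the first enzyme of glycolysis, gave 321 and 663 (2.06-fold), and the receptor subunit IL18RAP 111 and 263 (2.36-fold). Its partner IL18R1 gave 225 and 444. PTGER1, another prostaglandin E2 receptor, gave 45.9 and 116, but the median over its probe sets was 0.04, so that its direction depended on the probe set.

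Housekeeping, stress and interferon lists differed little among the genes described. Across 18 cytosolic ribosomal protein genes the log2 ratio ran from -0.15 to -0.01, and across 23 respiratory chain genes from -0.43 to 0.11. Among 9 heat shock, 18 unfolded protein response, 13 cholesterol and 11 interferon-stimulated genes none was past 2-fold in either direction. Of the 30 interferon-stimulated genes measured, 19 were too dim to be described. CXCL10 was counted with the CXC chemokines and not in this list. The 6 metallothionein genes, which bind zinc and copper and whose probe sets can cross-hybridize, were all higher, from 0.34 to 0.77. MT2A gave 4041 and 2366. Genes of metabolism and iron uptake past 2-fold included ME1, malic enzyme, at 1293 and 485, and the transferrin receptor TFRC at 3101 and 1256. Other metabolic genes went the other way, such as HK2, given above.

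Among the signaling partners of the lectins, TYROBP, which encodes DAP12, gave 329 in Siglec-14,NTHi[-] and 205 in Siglec-5,NTHi[-], and 376 and 186 with NTHi. Its log2 ratio without NTHi, 0.68, was under 2-fold but above the 95th percentile of the 8110 genes, 0.54. The other partners lay within the central range: SYK gave 439 and 570, PTPN6 241 and 305, and PTPN11 3093 and 3488. Of 14 genes of the DAP12, Fc receptor and SYK pathway, TREM2 was past 2-fold and the other 13 were not, and the median was -0.12.

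**Figure D3:**
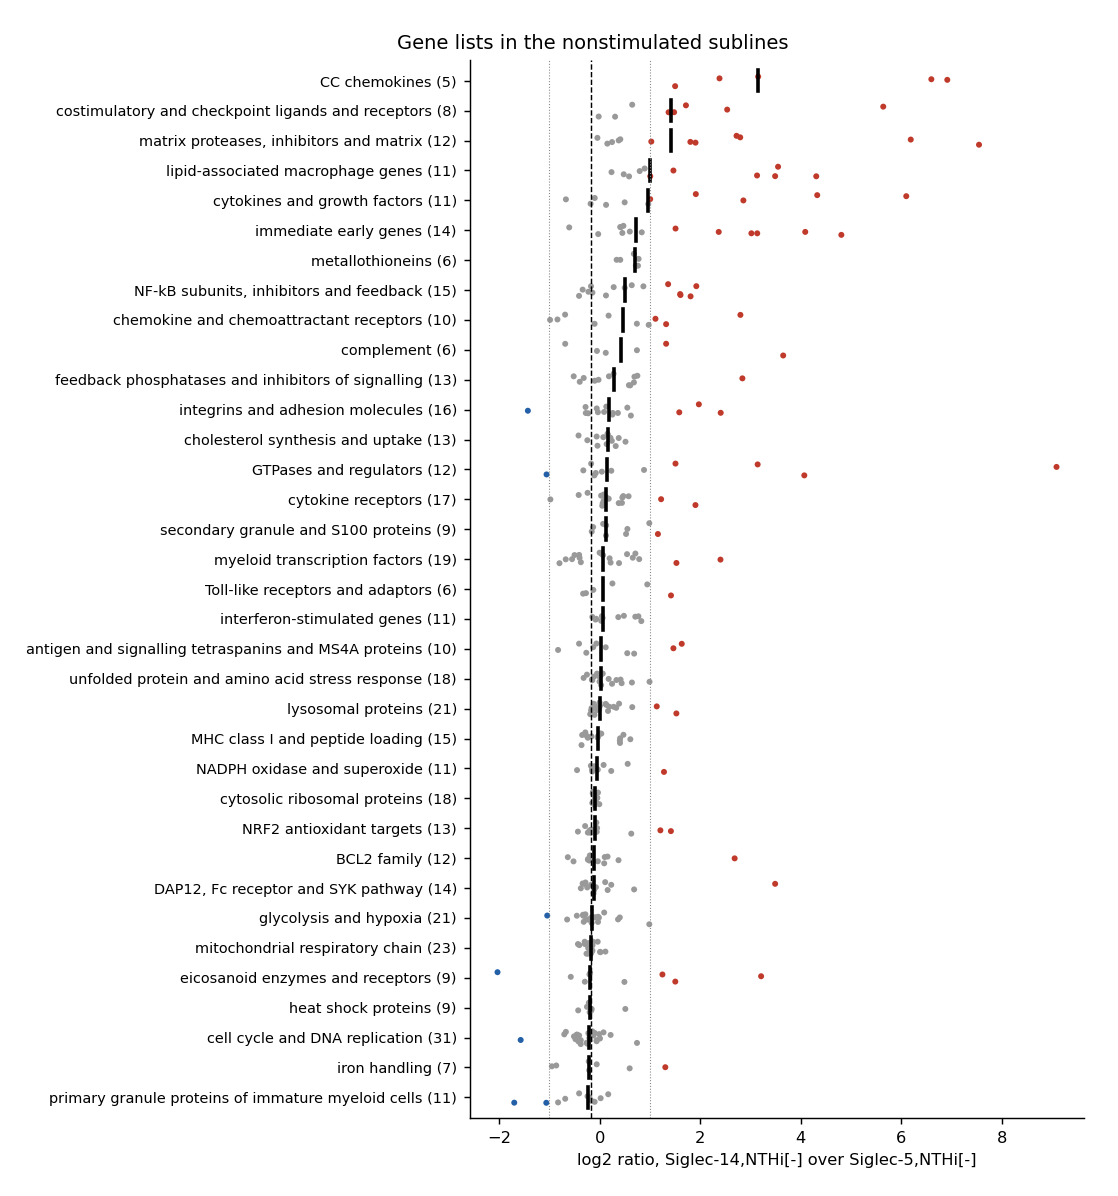
Log2 ratio of Siglec-14,NTHi[-] over Siglec-5,NTHi[-] for the genes of each list with at least 5 described genes (number in parentheses). Each point is 1 gene, red at least 2-fold higher, blue at least 2-fold lower and grey between, the black bar is the median of the list, and the dashed line the median of all 8110 genes, -0.17. The CC chemokine median of 3.15 stands at the top, and the ribosomal and respiratory chain genes cluster at the dashed line.

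Transcription factors of the myeloid lineage were mostly close, with 17 of 19 within 2-fold. ID2, which blocks E proteins, gave 1152 and 218 (5.28-fold higher), and BHLHE40 320 and 111 (2.88-fold). CEBPA gave nearly equal signals, and MYB, of immature cells, gave 3055 and 4884. Among survival genes of the BCL2 family only BCL2A1, an NF-kB target, was past 2-fold, at 196 and 30.4 (6.42-fold). Of the 97 genes 47 belonged to a list and 50 to none. The latter included PNOC, the precursor of nociceptin, at 359 and 28.5 (12.6-fold), IL4I1, an amino acid oxidase, at 346 and 26.5 (13.1-fold), SGK1, a serum-regulated kinase, at 185 and 13.1 (at least 11.5-fold), and INHBA, a subunit of activin, at 123 and 0.988 (at least 7.67-fold). Also outside the lists were GPR183, an oxysterol receptor, at 482 and 80.1 (6.02-fold), the adhesion receptor ADGRE2 at 418 and 63.1 (6.62-fold) and THBD, thrombomodulin, at 466 and 150 (3.1-fold).

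Different probe sets of a gene read the same RNA, so they bear on the measurement and not on the cells. The 97 genes had 147 further probe sets, over 61 genes, of which 131 gave the same direction and 16 the opposite. Of the 106 whose higher signal reached 16.0, 98 gave the same direction, 87 at least 2-fold and 66 at least 3-fold, and 8 the opposite. These 8 belong to COL6A1, HIPK2, PDLIM4, PHACTR2, PHLDA2 and RCAN1, and that of COL6A1 differed most, at 5.59 and 40.2 beside 256 and 38.9 on the brightest. At 105 or more, 39 of 39 gave the same direction, but many of them reached 105 in Siglec-14/THP-1 alone, so the direction is partly set by that floor. The 67 genes at least 2-fold lower had 71 further probe sets, of which 57 were lower, 23 at least 2-fold, and 14 higher. Over 4696 further probe sets at or above 105, of 3157 genes, the SD between probe sets of a gene was 0.19 on the log2 scale.

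The stimulated pair, measured on 2 other arrays, gave the same ratio under another condition and is no replicate. In that pair, 238 of the 8110 genes (2.93%) were at least 2-fold higher and 38 (0.469%) lower, and 112 (1.38%) and 1 (0.0123%) were past 3-fold. The median was 0.04, with 4522 genes (55.8%) higher in Siglec-14/THP-1. Of the 97 genes at least 3-fold higher without NTHi, 84 were at least 3-fold, 89 at least 2-fold and 96 to any degree higher with it. The median log2 ratio of the 97 was 2.53 without and 2.51 with NTHi. Of the 67 genes at least 2-fold lower without NTHi, 65 were lower with it and 24 at least 2-fold. Their median moved from -1.17 to -0.84, and 59 of the 67 came closer to equal signals. The median over all 8110 genes also rose, from -0.17 to 0.04. The 67 were chosen for low ratios in the nonstimulated pair, which by itself favors ratios nearer to equal in another pair. A change particular to the 67 was not tested. No gene was at least 2-fold different in opposite directions in the pairs.

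With NTHi the ratio was larger for 57 of the 97 genes and smaller for 40, by at least 2-fold for 5 and 12. The median log2 ratio of all 8110 genes was higher with NTHi as well, at 0.04 beside -0.17. The 5 with a larger ratio were HAVCR2, EMP1, CAVIN1, FN1 and TFPI2, and in all 5 the Siglec-5,NTHi[+] signal was under 16.0, where signals have no order. EMP1 in Siglec-5/THP-1, for example, gave 16.1 without and 5.08 with NTHi, and CAVIN1 25.1 and 8.90. For TFPI2 the signal in Siglec-14/THP-1 also differed, at 272 without and 675 with NTHi. With 16.0 as the lower signal, its bound went from 17.0-fold to 42.1-fold. The bound of FN1 went from 8.77-fold to 10.97-fold, and that of HAVCR2 from 8.86-fold to 8.55-fold. Among the 77 of the 97 genes with signals at or above 16.0 on all 4 arrays, 8 had a ratio at least 2-fold smaller with NTHi. These divisions were made after the values were seen, and the limit of 16.0 leaves out all 5 genes with the larger ratio. The 8 were CXCL10, LTB, IL4I1, CCL4, C3, VCAM1, MAML2 and PTPN14. LTB went from 7.24-fold to 1.9-fold and VCAM1 from 3.92-fold to 1.48-fold. In Siglec-5/THP-1 the signal of LTB was 134 without and 997 with NTHi, and that of VCAM1 28.2 and 174. PTPN14, a phosphatase, differed from the others, since its signal in Siglec-14/THP-1 was 279 without and 173 with NTHi.

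**Figure D4:**
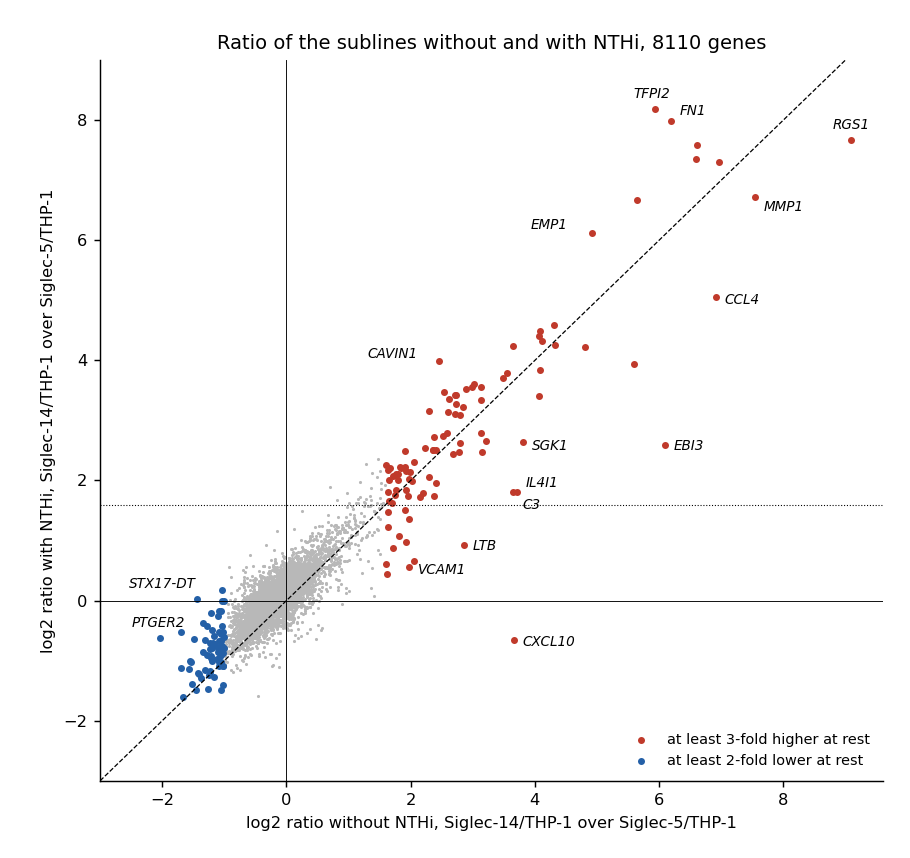
Log2 ratio of Siglec-14/THP-1 over Siglec-5/THP-1 without NTHi (horizontal) and with NTHi (vertical) for the 8110 genes, from signals as deposited, including those under the floor. Red points are the 97 genes at least 3-fold higher and blue points the 67 at least 2-fold lower without NTHi, points on the dashed diagonal have equal ratios, and the dotted line is 3-fold with NTHi. Of the red points 84 lie above the dotted line, and CXCL10 is the only one below zero.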

How the data were processed

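RNA of 4 THP-1 samples, 1 per condition, was labeled from 250 ng and measured on Affymetrix U133 Plus 2.0 arrays. The authors quantified them with GeneChip Operating Software (GCOS), version not given in the sources used here, and deposited 1 signal intensity per probe set on a linear scale. Their methods state a standardization on the summed signal, but the sums of the deposited intensities differ between arrays (1.27e+07 to 1.40e+07), so the values were used as deposited and other scalings tried.

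Of 54675 probe sets, 62 were controls, 41091 were listed for 1 gene in the platform annotation, 1801 for several (not used) and 11783 for none. Symbols were checked against RefSeq (GRCh38.p14), and 0 were updated. Ratios were taken without a pseudocount and without tests, since each side has 1 array, and 3-fold is the study's threshold. Counting was tested on simulated data. Python 3.11.15, numpy 2.4.6, pandas 2.3.3 and matplotlib 3.10.9 were used.

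The genes, the 43 gene lists and the motifs were chosen with earlier results of these data known. Genes were named as the Siglecs, the 20 highest and lowest ratios with both signals at the median of all signals, the 10 highest and lowest with both at the 75th percentile, the 10 largest bounds, and up to 5 genes of each list. INHBA, GPR183, ADGRE2, THBD, MNDA, IRX3, CA2, PTPN14, MAML2, SLC34A3, TNFSF14 and signaling or list genes beyond the largest 5 were named after their values were seen. A planned comparison of the Siglec-14 and Siglec-5 protein sequences was not run.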

Additional observations from a re-analysis of the deposited data

Results flagged for a closer look

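CXCL10 had a log2 ratio of Siglec-14/THP-1 over Siglec-5/THP-1 of 3.66 without and -0.66 with NTHi. SLC34A3, a phosphate transporter, had -1.04 without NTHi (71.8 and 147) and 0.18 with it (232 and 205). STX17-DT, a noncoding transcript, had -1.44 without NTHi (47.2 and 128) and 0.031 with it (102 and 99.8). The sign differed between the pairs, each of 1 array a side, and the difference was not tested.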

How the results depend on the processing

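No paired analysis was possible because each condition has 1 sample, and no replicate could be left out. The main counts were 97 genes at least 3-fold higher and 4 lower, and 187 at least 2-fold higher and 67 lower. At least 3-fold lower were 1 gene with equal sums, 1 with equal 2% trimmed means, 2 after quantile normalization, 2 with the median of all signals added, 30 with the median over a gene's probe sets, 226 with the floor at the median of all signals, 1 with the floor at the 90th percentile and 1 at a 4-fold threshold. At least 2-fold lower were 36, 36, 44, 43, 122, 527 and 15 genes under the first 7 of these. At least 3-fold higher were 466 genes with the median floor and 27 with the 90th percentile floor, and at least 2-fold higher 828 and 57. Equal sums and trimmed means multiply all ratios by a factor above 1, and quantile normalization also raised their median. All 97 higher genes were still counted as past 3-fold under these, an outcome nearly fixed in advance. Equal medians lower all ratios slightly, and 94 were still counted there. Under the median over probe sets 87 were still counted, and with the median of all signals added 83. With the floor on the mean over the 4 arrays 78 were still counted. That floor left every ratio unchanged and removed genes by their mean signal. Higher genes were 86.7% of those past 2-fold with trimmed means, 83.3% after quantile normalization and 69.0% with equal medians. Over 224 named genes and 7 settings, 1568 values, 2 changed sign, both under the median over probe sets: PTGER1 to 0.043 and CD9 to -0.13. The further probe sets of both genes were dim, near or under the floor. Without a change of sign, 69 of the 224 moved by more than the spread between probe sets under that median, 58 with the median of all signals added, 23 after quantile normalization and 18 with signals raised to the median of all signals. Of 35 list medians 10 moved so with the 90th percentile floor, 8 with the median floor, 5 after quantile normalization, 4 with the floor on the mean and 2 under the median over probe sets. With 1 array a side, the spread between cultures is unknown.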

Other observations

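Some mediators were too dim to be described above, and their values, picked after they were seen, are given with no fold. All those picked were higher in Siglec-14,NTHi[-]. Of the 5174 genes whose higher nonstimulated signal lay between 16.0 and 105, 369 were at least 3-fold higher and 222 at least 3-fold lower. CSF1, the growth factor of macrophages, gave 101 in Siglec-14,NTHi[-] and 20.9 in Siglec-5,NTHi[-], and TNFSF15 gave 98.4 and 21.3. CCL24, an eosinophil attractant, gave 96.4 and 7.02, and the neutrophil attractant CXCL1 80.8 and 33.9. TNF gave 21.5 and 3.54 without NTHi, and 57.9 and 25.9 with it. TREM1, a DAP12-coupled receptor of myeloid cells, gave 45.6 and 3.18.

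In the order of genes along the chromosomes, the running median of the log2 ratio over 15 neighboring genes stayed between -0.49 and 0.34 without NTHi and between -0.31 and 0.44 with it, over 7766 windows of 8105 genes. Among the 97 genes at least 3-fold higher, 4 pairs were next to each other in that order: RGS1 and RGS2, CDKN1C and PHLDA2, TNFSF14 and C3, and IL1B and IL1RN.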
